A study of Homo sapiens with 6 samples.

Results

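The genes described here encode the machinery that copies DNA. They are 52 protein-coding genes chosen by name and function, not by any measured value, out of 19970 protein-coding genes on the autosomes and the X chromosome. Earlier results of these data were known when the genes were chosen. Their roles are origin recognition (6 genes), licensing (3), the MCM helicase (6), helicase activation (10), the polymerases and primase (9), the sliding clamp and its loaders (7), single-strand binding (3), joining of Okazaki fragments (2), fork protection (4) and chromatin assembly (2). All 52 were found in the annotation.

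All data came from MDA-MB-231, an established human triple-negative breast cancer cell line, by chromatin immunoprecipitation with sequencing (ChIP-seq), in which an antibody pulls down a protein or a modified histone with the DNA attached to it. For the transcription factor E2F1 there was 1 library of untreated cells, 1 of cells kept for 72 h in the solvent DMSO, and 1 of cells kept for 72 h in 1 µM GSK126, which blocks the enzyme EZH2. The histone mark H3K27me3, 3 methyl groups on lysine 27 of histone H3, was profiled after a 24 h lentiviral transduction with control shRNA or with an shRNA against E2F1 (shE2F1), followed in both by 72 h of selection in puromycin at 2 µg/ml. Each of these 5 conditions had 1 library and a sixth sample, the input of untreated cells, was not analysed here, so a difference between conditions has no replicate check and carries no p-value.

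Before replication begins, the origin recognition complex marks origins, and CDC6 and CDT1 load the ring of MCM proteins there. Geminin (GMNN) blocks CDT1 later in the cycle, so that origins are not licensed again. CDC45 and the GINS proteins join MCM at the start of S phase, with the kinase CDC7 and its partner DBF4 switching the helicase on, and polymerases then copy both strands behind the clamp PCNA. Many of these genes are known targets of the E2F family, which drives entry into S phase, and H3K27me3, the mark that EZH2 deposits, is known from repressed genes.

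A peak is a stretch of the genome where a library held more fragments than its background, as called by the authors. Its fold is the ratio of fragments to local background, taken at the highest point (the summit) for E2F1 and averaged over the peak for H3K27me3. The q value is its p-value corrected for multiple testing, printed here as −log10 q. A gene had an E2F1 peak when a summit lay within 1000 bp of any of its annotated transcription start sites (TSSs), and an H3K27me3 peak when a peak overlapped that window by at least 1 bp. Where a gene had several peaks, the one with the highest fold is given. The fragments expected over any base, read from the peak values, numbered 0.668 for untreated cells, 1.82 for DMSO and 1.70 for GSK126, so the untreated library was the shallowest. The untreated list held 1056 peaks, the DMSO list 15703 and the GSK126 list 14276, and the H3K27me3 lists held 123957 with control shRNA and 135683 with shE2F1. Intervals are exact 95% Clopper-Pearson intervals that cover counting error only.

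E2F1 occupied almost every replication gene in the deeper libraries. In DMSO, 50 of 52 members (96.2%, 86.8% to 99.5%) had an E2F1 peak at the promoter, where 33.5% of all protein-coding genes did. In GSK126 the count was 51 of 52 (98.1%, lower limit 89.7%) against 51.5% of all genes. In untreated cells it was 29 of 52 (55.8%, 41.3% to 69.5%) against 5.85%. The same 29 members had a peak in all 3 lists, which 5.71% of all genes did. The only members without a peak in DMSO or GSK126 encode subunits of the origin recognition complex, which had 0 of 6 in the untreated list, 4 of 6 in DMSO and 5 of 6 in GSK126. The chromatin assembly genes also had no untreated peak (0 of 2).

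**Figure D1:**
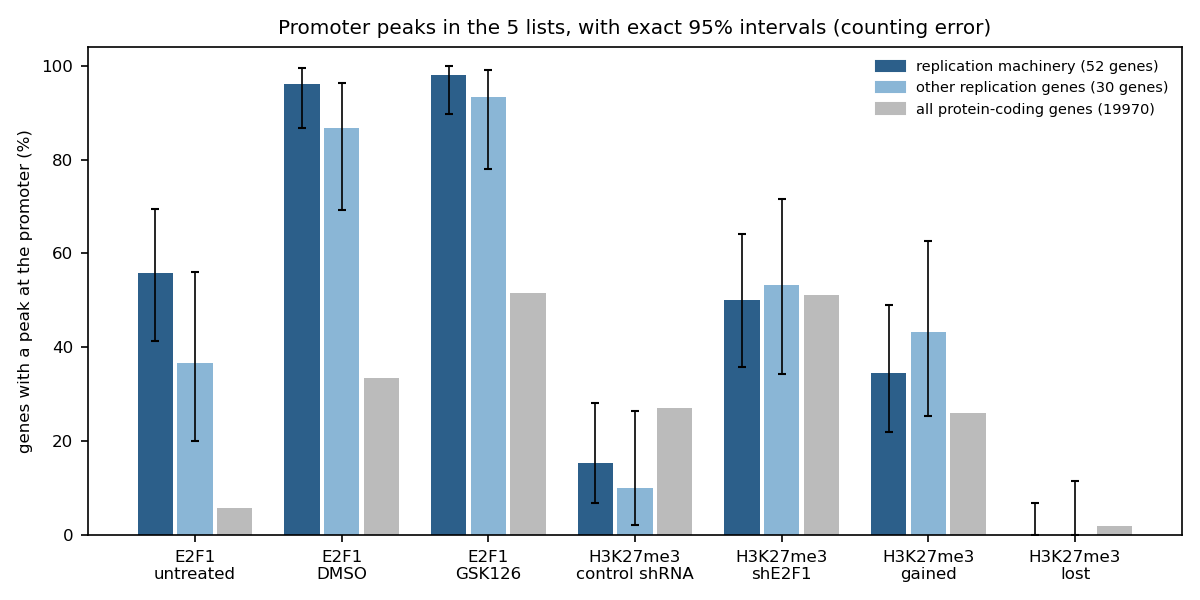
Share of genes with a promoter peak in each of the 5 lists, and with H3K27me3 gained or lost in shE2F1, as percent of genes on the vertical axis. Dark bars are the 52 replication machinery genes, light bars 30 further replication genes, both with exact 95% intervals, and grey bars all 19970 protein-coding genes. In the E2F1 lists the dark bars (55.8%, 96.2% and 98.1%) stand above the grey ones, and in shE2F1 H3K27me3 they are level (50% against 51.2%).

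The peaks at members were also strong ones. The median fold at members was 19.4 in DMSO (range 4.75 to 42.4, 50 genes) and 31.8 in GSK126 (range 2.94 to 72.5, 51 genes), while all genes with a peak had medians of 6.03 and 7.78. In untreated cells the member median was 11.5 (range 4.85 to 24.7, 29 genes) against 8.28. Of the members with a peak, 36 of 50 in DMSO and 42 of 51 in GSK126 stood among the top 10% of genes by fold, as did 9 of 29 in untreated cells. PCNA ranked 15 of 6698 genes in DMSO, MCM3 ranked 20 and CDC7 ranked 24. In GSK126, MCM3 ranked 17 and PCNA 22 of 10279.

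**Figure D2:**
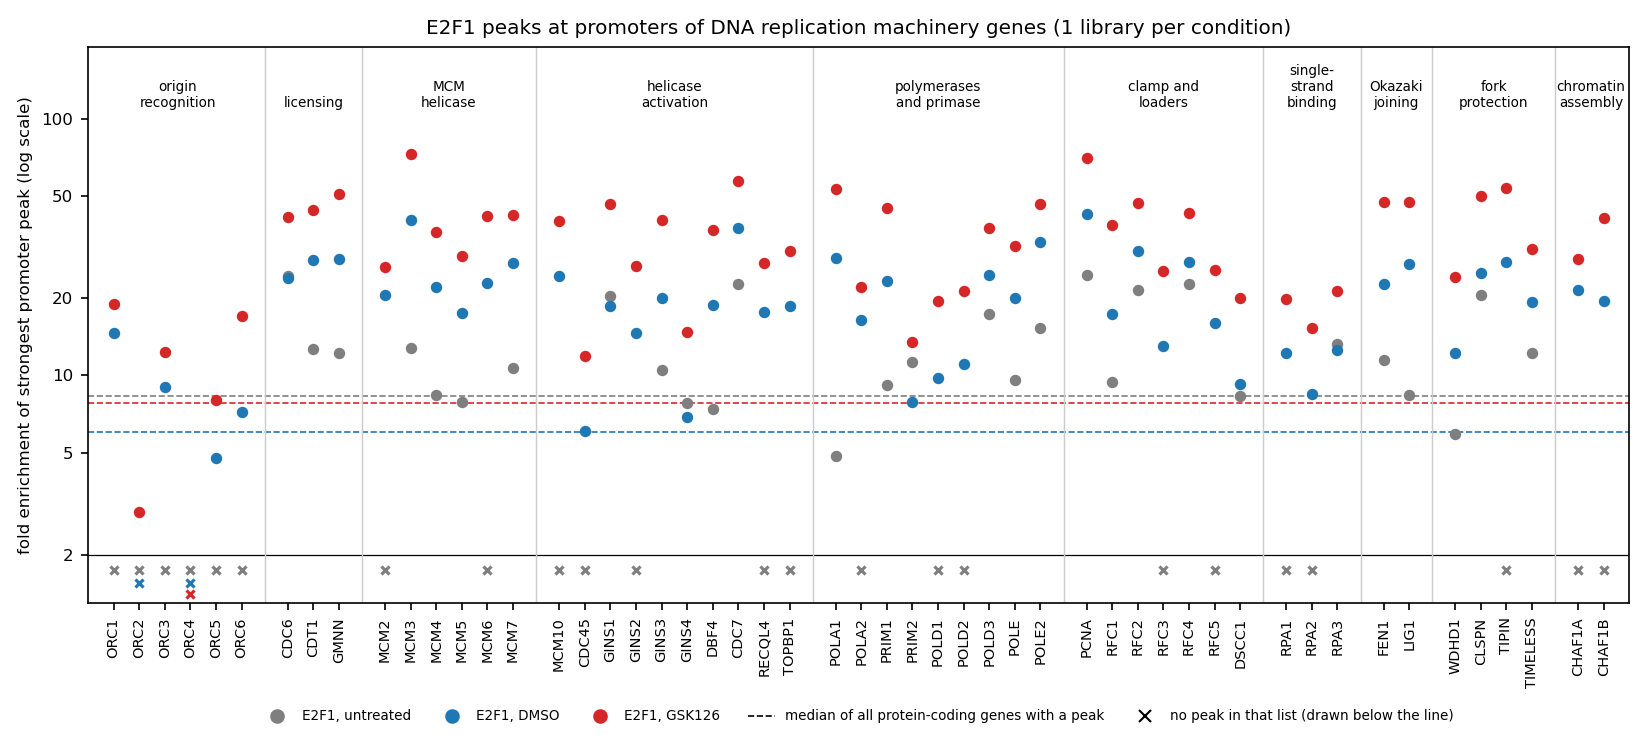
Fold enrichment of the strongest E2F1 promoter peak (vertical axis, log scale) for each of the 52 members (horizontal axis, grouped by role) in the untreated (grey), DMSO (blue) and GSK126 (red) lists, 1 library each. Dashed lines are medians over all protein-coding genes with a peak, and crosses below the line mark members without a peak in that list. At each of the 50 members with a peak in both, the red point lies above the blue one, and the origin recognition genes carry the lowest points.

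At the origin recognition complex, which marks the sites where replication starts, E2F1 folds were low for replication genes, although in DMSO 3 of the 4 subunits with a peak exceeded the median of all genes, 6.03. ORC1 had a fold of 14.6 in DMSO and 18.9 in GSK126. ORC3 reached 9.04 and 12.3. ORC5 reached 4.75 and 8.00, and ORC6 7.21 and 16.9. ORC2 had a peak only in the GSK126 list, with a fold of 2.94 at 29 fragments. ORC4 had no peak in any list, and the nearest GSK126 summit lay 93967 bp away from its TSSs. The median DMSO fold of the 4 subunits with a peak was 8.12, the lowest of the 10 roles, and ORC1 alone exceeded a DMSO fold of 10 among them.

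The licensing genes were occupied in all 3 lists. CDC6, which brings MCM to origins, had folds of 24.3 untreated, 24.0 in DMSO and 41.3 in GSK126. CDT1, its partner in loading, had 12.6, 28.2 and 44.2, and GMNN 12.3, 28.3 and 50.7. By fold, CDC6 was thus as high untreated as in DMSO, while CDT1 and GMNN were lower untreated.

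All 6 subunits of the MCM helicase, the ring that unwinds DNA, had a peak in DMSO and in GSK126. MCM3 was the strongest, with a fold of 12.8 untreated, 40.3 with DMSO and 72.5 with GSK126. MCM4 had 8.39, 22.0 and 36.2, MCM5 had 7.86, 17.5 and 29.2, and MCM7 had 10.7, 27.4 and 42.3. MCM2 and MCM6 lacked an untreated peak, although their DMSO folds of 20.5 and 22.9 lay within the range of the other subunits. Their GSK126 folds were 26.5 and 41.6.

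Among the activators of the helicase, CDC7 had the highest folds, 22.6 untreated, 37.6 with DMSO and 57.0 with GSK126. Its regulatory subunit DBF4 had 7.41, 18.7 and 36.9. The GINS genes, which encode a complex that joins MCM, differed among themselves. GINS1 had folds of 20.3, 18.6 and 46.3, and GINS3 had 10.5, 20.1 and 40.4. GINS4 was lower, with 7.80, 6.87 and 14.7, and GINS2 had no untreated peak and folds of 14.6 and 26.7. MCM10, a helicase cofactor, had 24.3 in DMSO and 40.1 in GSK126 without an untreated peak, whereas CDC45, a core part of the active helicase, had 6.07 and 11.9. RECQL4 and TOPBP1, both needed to assemble the active helicase, had DMSO folds of 17.7 and 18.7 and no untreated peak.

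Of the 9 polymerase and primase genes, all had a peak in DMSO and GSK126 and 6 in untreated cells. POLE2, a subunit of the leading-strand polymerase, had folds of 15.3, 33.2 and 46.6. POLD3, a subunit of the lagging-strand polymerase, had 17.4, 24.7 and 37.5. POLA1, the catalytic subunit that starts each new strand with primase, had the lowest untreated fold of any member, 4.85, and folds of 28.6 in DMSO and 53.0 in GSK126. Its untreated summit lay at −257 bp and its DMSO summit at −16 bp from the nearest TSS, where negative positions are upstream. PRIM2, the large primase subunit, had the opposite order by fold, with 11.2 in untreated cells and 7.86 in DMSO. The local backgrounds were 1.14 and 8.29 fragments in that order.

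The sliding clamp gene PCNA carried the highest untreated and DMSO folds of all members, 24.7 and 42.4, and 70.5 in GSK126. Its strongest summit did not lie at a TSS but in an intron, 548 bp downstream of the nearest one in DMSO. A further, weaker peak sat at its other TSS, at −28 bp in DMSO, with a fold of 7.24 in DMSO and 16.9 in GSK126 and none in the untreated list. RFC2 and RFC4, subunits of the complex that loads the clamp, had untreated folds of 21.5 and 22.7, DMSO folds of 30.4 and 27.6 and GSK126 folds of 46.8 and 42.9. RFC1, the large loader subunit, had 9.38, 17.4 and 38.5, and RFC3 and RFC5 had no untreated peak. DSCC1, part of an alternative loader, had 8.28, 9.27 and 20.0.

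The genes for replication protein A, which coats single-stranded DNA, had DMSO folds of 12.2 (RPA1), 8.49 (RPA2) and 12.6 (RPA3), and RPA3 alone had an untreated peak, at 13.2. The RPA3 peaks lay at another annotated start, with the DMSO summit at chr7:7640450 and the canonical TSS at chr7:7718607. By its canonical TSS alone RPA3 had no E2F1 peak. FEN1 and LIG1, which trim and seal Okazaki fragments, had untreated folds of 11.5 and 8.41, DMSO folds of 22.7 and 27.1 and GSK126 folds of 47.4 and 47.1. Among the fork protection genes, CLSPN, which relays stalled-fork signals, had 20.6, 25.0 and 50.0, and TIPIN had 27.5 and 53.4 with no untreated peak. Its partner TIMELESS had 12.2, 19.4 and 31.0, and WDHD1, which links helicase and polymerase, 5.88, 12.2 and 24.2. The chromatin assembly genes CHAF1A and CHAF1B, which place histones behind the fork, had DMSO folds of 21.5 and 19.4 and no untreated peak.

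The 23 members without an untreated peak were not simply the weak ones. Their DMSO folds ranged from 4.75 to 27.5 (median 14.6, 21 genes with a peak), and those of the 29 members with an untreated peak from 6.87 to 42.4 (median 23.4). The ranges overlapped. MCM6, MCM10 and TIPIN, at DMSO folds of 22.9, 24.3 and 27.5, lacked an untreated peak, whereas GINS4, PRIM2 and DSCC1, at 6.87, 7.86 and 9.27, had one. The 23 genes spanned few and many annotated TSSs, from ORC1 with 2 and CHAF1B, GINS2, MCM6 and RFC3 with 3 each to POLA2 and RECQL4 with 11 each, CDC45 and ORC4 with 14 each, POLD1 with 15 and POLD2 with 31. The fold was higher in untreated cells than in DMSO at 5 of 29 members, CDC6, GINS1, GINS4, PRIM2 and RPA3. The depth of the untreated library and the absence of treatment cannot be told apart here.

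The summits at members lay close to the TSS and to an E2F motif. The summit was within 100 bp of a TSS at 45 of 50 members in DMSO and 46 of 51 in GSK126, against 48.6% and 51.0% of all genes with a peak. The median distance was 15.5 bp in DMSO and 11 bp in GSK126, against 106 and 97 bp. Distances were to the nearest of all annotated TSSs, of which members had more (median 7.5 against 5 over all genes). More TSSs can shorten this distance, and distances to the canonical TSS were not compared. By annotation, 34 of the 50 DMSO summits fell in a UTR exon, 8 outside the gene, 6 in an intron, 1 in a noncoding exon and 1 in a coding exon. The position moved little between DMSO and GSK126, with a median shift of 10.5 bp, and 44 of 50 members stayed within 30 bp. The shift was not computed over all genes. DBF4 moved most, by 254 bp.

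The E2F motif was searched within 100 bp of the summit, on either strand, as any of 4 forms of 7 letters. The forms with C as the third letter were TTCCCGC, as in the RFC4 promoter, and also TTCGCGC, as in that of PCNA. The other forms were TTGCCGC as well as the form found at CDC6, which reads TTGGCGC from the 5′ end. It was present at 42 of 50 members in DMSO (84.0%, 70.9% to 92.8%) against 37.4% of all genes with a peak, and at 42 of 51 in GSK126 (82.4%, 69.1% to 91.6%) against 32.3%. In untreated cells it was present at 23 of 29 (79.3%, 60.3% to 92.0%) against 56.1%. Since strong peaks hold the motif more often, members with a DMSO fold of at least 10 were also set against genes at that level. The motif stood at 37 of these 41 members (90.2%, 76.9% to 97.3%) and at 64.3% of such genes. In DMSO 18 of 50 members held 2 or more copies, against 6.52% of all genes with a peak. Copies were counted on each strand, so overlapping copies on opposite strands counted as 2. Where the motif was present, its centre was a median of 13.5 bp from the DMSO summit.

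The motif and its surroundings are shown for the 5 members with the highest untreated fold, because these summits are the strongest found in the shallowest library. Each line gives 30 bases of hg38, 5′ to 3′ on the strand that carries the motif, and capitals mark the motif nearest the untreated summit. The summits fell in an intron (PCNA and CDC7), in a UTR exon (CDC6 and RFC4) and in a coding exon (RFC2), and the motif centre lay 18, 7, 1, 14 and 22 bp from the summit in the order printed.
PCNA, chr20:5119377-5119406, plus strand: gaaaaagcaggTTCGCGCagcagccagcgc
CDC6, chr17:40287876-40287905, plus strand: gccattcggatTTGGCGCgagcgcggctgg
RFC4, chr3:186806443-186806472, plus strand: agtcgcctcagTTCCCGCcacggaacggcg
CDC7, chr1:91501067-91501096, minus strand: aggcgcgcgactTTCCCGCcgcaggtcgga
RFC2, chr7:74254387-74254416, plus strand: cgcgcctcctcTTCCCGCcacccgaggcac

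Most of the MCM genes are shown together because their products form a single ring and their motifs differ in arrangement. These 5 were chosen after their values were seen, and capitals mark the motif nearest the DMSO summit together with any overlapping copy on the other strand. MCM4, the remaining subunit, had 2 copies near its DMSO summit and is not printed. At MCM2, MCM5, MCM6 and MCM7 the motif overlapped a second copy on the opposite strand, so that 10 letters are in capitals, while MCM3 had a single copy. The motif centre lay 14, 12, 19, 20 and 35 bp from the summit in the order printed. The DMSO summit fell outside the gene at MCM2, MCM3, MCM5 and MCM6, at −7, −19, −167 and −63 bp from the nearest TSS, and in a UTR exon at 33 bp at MCM7.
MCM2, chr3:127598403-127598432, plus strand: gtgaaccacttTTCGCGCGAAacctggttg
MCM3, chr6:52284898-52284927, minus strand: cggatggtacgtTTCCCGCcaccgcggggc
MCM5, chr22:35399934-35399963, minus strand: gtgcggaacaatTTGGCGCGAAacttctgg
MCM6, chr2:135876512-135876541, plus strand: gagctggagatTTCGCGCCAAacctgacca
MCM7, chr7:100101385-100101414, plus strand: gccaaccgaaaTTGGCGCGAAacgtcgccc

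**Figure D3:**
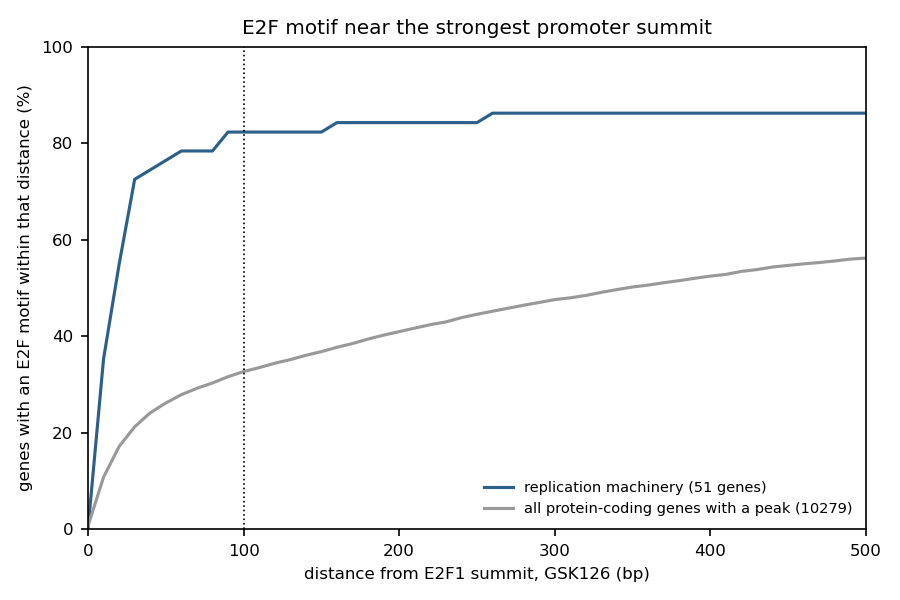
Cumulative share of genes (vertical axis, percent) with an E2F motif within a given distance of the strongest GSK126 summit (horizontal axis, bp), for the 51 members with a peak (blue) and for all 10279 protein-coding genes with one (grey). The dotted line marks 100 bp. The member curve reaches 72.5% within 30 bp, where all genes are at 21.2%, and then flattens.

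The motif was missing within 100 bp of the GSK126 summit at 9 members, ORC5, ORC6, MCM10, CDC45, DBF4, RECQL4, PRIM2, POLD2 and FEN1. MCM10 and FEN1 nevertheless had GSK126 folds of 40.1 and 47.4. At DBF4 the DMSO summit, 254 bp away, had 2 copies within reach. Over fixed promoter windows from RefSeq (GRCh38.p14, 250 bases before to 50 after the start), the E2F motif was found in 33 of the 44 members that could be matched (75%) and in 20.8% of all 15316 protein-coding genes matched, with both strands read here and for the motifs that follow. CCAAT, the NF-Y box, was found in 25 of 44 against 42.5%, and the GC box GGGCGG in 35 of 44 against 65.1%. The cell cycle homology element, as TTTGAA or TTCGAA, was found in 2 of 44 against 17.5%.

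GSK126 was set against DMSO to see how E2F1 occupancy stood when EZH2 was inhibited. At each of the 50 members with a peak in both lists the fold was higher in GSK126. This was not particular to these genes, since it was higher at 6354 of the 6539 protein-coding genes with a peak in both. The median log2 ratio of fold was 0.78 at members (order-statistic 95% interval 0.71 to 0.89) and 0.73 over all those genes, and the members' interval included that general shift. The fold was at least 1.5 times higher at 44 of 50 members (88.0%, 75.7% to 95.5%), against 67.7% of all genes, and at least 1.5 times lower at 0 of 50 (upper limit 7.11%), against 0.107%. Among genes with a DMSO fold of at least 10 the call was made for 36 of 41 members (87.8%, 73.8% to 95.9%) and 75% of all.

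Counting fragments at the summit, scaled to the lowest background of each library, gave a median log2 ratio of 0.79 at members and 0.77 over all genes. The highest fold ratios were at GINS1 (1.32), ORC6 (1.23), RFC1 (1.15), DSCC1 (1.11) and GINS4 (1.10). The lowest were at MCM2 (0.37), ORC1 (0.38), CHAF1A (0.40), POLA2 (0.42) and ORC3 (0.44). Members of the origin recognition complex stood at both ends, and all 10 of these genes were higher in GSK126.

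On fragments, 3 members had an interval that did not include the median of all genes. GINS1 was above it at 1.22 (0.92 to 1.51), with 141 fragments in DMSO and 306 in GSK126. MCM2 was below it at 0.38 (0.01 to 0.76), with 110 and 134 fragments, and POLE2 was below it at 0.51 (0.26 to 0.75), with 251 and 333. ORC3 was the only member whose interval included 0, at 0.46 (−0.18 to 1.11), with 38 and 49 fragments. At RFC1 the fold ratio of 1.15 fell to 0.77 on fragments. These intervals were not adjusted for the 50 members examined, and 1 library per condition leaves biological spread unmeasured. How many of all genes had an interval without the median, or one that included 0, was not counted. The ratios of GINS1, MCM2 and POLE2 lay between the 5th and 95th percentiles of all genes, 0.23 and 1.24. These 3 members are therefore not read as set apart from genes at large.

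**Figure D4:**
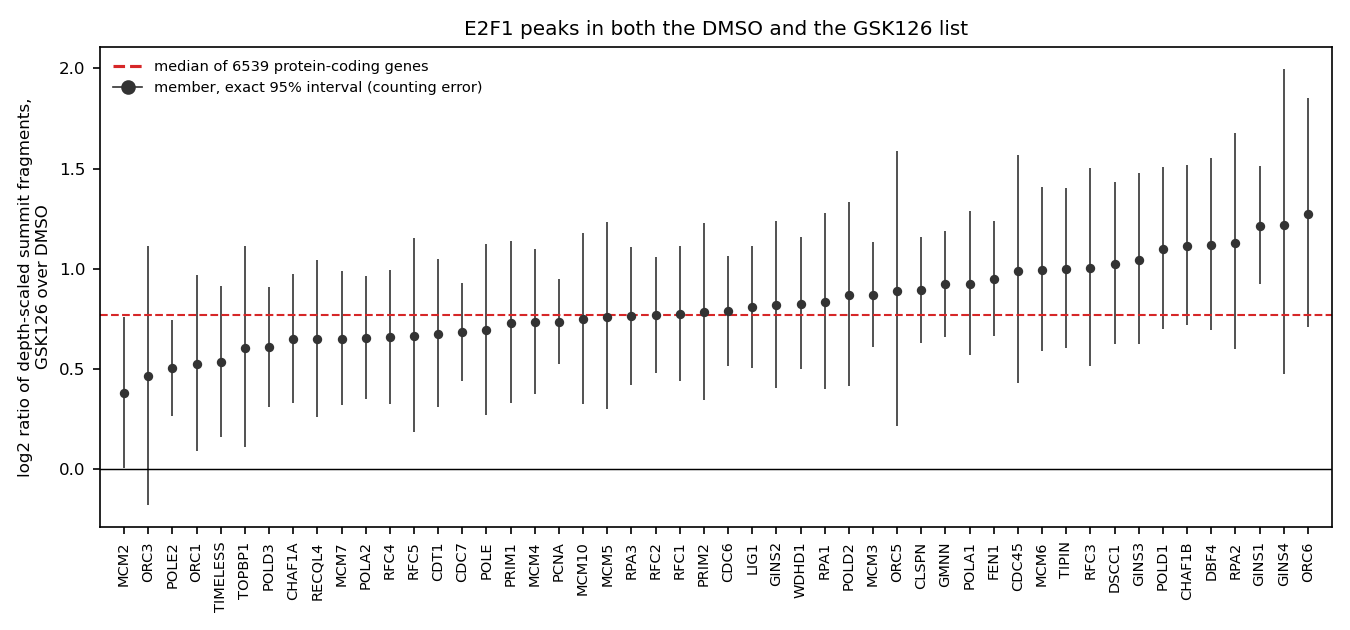
Log2 ratio of depth-scaled summit fragments, GSK126 over DMSO (vertical axis), for the 50 members with a peak in both lists, ordered by value. Points are members with exact 95% intervals for counting error, and the dashed line is the median of 6539 protein-coding genes (0.77). All points lie above 0. The intervals of GINS1, MCM2 and POLE2 do not include the dashed line, those of MCM2 and POLE2 only narrowly.

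H3K27me3 was compared between control shRNA and shE2F1 to see whether replication promoters carried the mark when E2F1 was targeted. With control shRNA 8 of 52 members (15.4%, 6.88% to 28.1%) had an H3K27me3 peak at the promoter, against 27.1% of all protein-coding genes. With shE2F1 there were 26 of 52 (50.0%, 35.8% to 64.2%), against 51.2%. Thus 18 members gained a peak (34.6%, 22.0% to 49.1%) against 26% of all genes, 8 had one in both and 26 in neither. Only a gene without a control shRNA peak could gain one, so the lower control share of members (15.4% against 27.1%) bears on this comparison. No member lost one (0 of 52, upper limit 6.85%), against 1.94%. The marker check on this mark failed. Of 39 HOX genes, classical carriers of H3K27me3, 10 had a peak in each list, against 27.1% and 51.2% of all genes. HOX genes thus did not stand above all genes. The housekeeping gene ACTB had a peak in both lists and GAPDH in shE2F1 only. Peak calls for this mark, gains included, should be read with that limit. How far the shRNA lowered E2F1 was not analysed here.

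Genes with E2F1 at the promoter gained H3K27me3 often, members or not. Among members with a DMSO E2F1 peak 18 of 50 gained it (36.0%, 22.9% to 50.8%), against 43.1% of all genes with such a peak. Among members with an untreated peak it was 12 of 29 (41.4%, 23.5% to 61.1%), against 42.9%. All 18 gained members had a DMSO fold of at least 10, which makes 18 of 41 (43.9%, 28.5% to 60.3%) against 44.2% of genes at that level. At TIPIN that fold, 27.5, was at a TSS away from the gained mark. The E2F1 peak that overlapped the gained H3K27me3 peak there had a DMSO fold of 3.94. Of the 9 members with a DMSO peak of lower fold 0 gained H3K27me3 (upper limit 33.6%), while 42.8% of such genes did, so over all genes the gain differed little between high and low DMSO folds. With control shRNA, 8 of 50 members with a DMSO E2F1 peak (16.0%, 7.17% to 29.1%) had H3K27me3, against 19.9%. Apart from the 9 members of low DMSO fold, a split chosen after the values were seen, the members' share lay within counting error of that of all E2F1-bound genes compared.

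By role, gains were found at 4 of 6 MCM genes (MCM3, MCM4, MCM5 and MCM7), 4 of 9 polymerase and primase genes, 3 of 10 helicase activators and 2 of 4 fork protection genes, and at 1 gene in each of 5 further roles. None of the 6 origin recognition genes gained a peak. The clearest gained peak was at POLA1, with a −log10 q of 13.6, a fold of 7.84 and a width of 330 bp. It covered the DMSO and GSK126 E2F1 summits but not the untreated one. TIPIN followed with 12.1, but that peak lay 29878 bp from the canonical TSS, at another annotated start, and TIPIN had no gain by its canonical TSS alone. GINS1 had a −log10 q of 10.4, MCM5 of 6.56 and MCM3 of 5.20. The remaining gains were weaker. WDHD1 had a −log10 q of 4.25, LIG1 of 3.86, MCM4 of 3.46, MCM7 of 2.91 and RPA1, which encodes the large subunit of replication protein A, of 2.62. At 5 of the 18 the −log10 q was under 2, and the lowest was 1.14. At 12 of the 18 (66.7%, 41.0% to 86.7%) an H3K27me3 peak covered the GSK126 E2F1 summit, against 63.2% of all genes that gained a peak and had such a summit.

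Of the 8 members with a peak in both lists, 7 had overlapping strongest peaks, and 5 of these had a higher fold in shE2F1. The same count was not made over all genes, so a general shift between the 2 lists cannot be told apart from it. PRIM1, the catalytic primase subunit, had 6.20 with control shRNA and 9.89 with shE2F1, RECQL4 had 4.91 and 7.63, and RFC1 5.58 and 7.41. ORC6 had 2.71 and 3.84, and CHAF1A 3.19 and 4.63. FEN1 and CDC45 went the other way, from 6.68 to 4.74 and from 4.08 to 3.88. GINS3 differed from the rest, because its strongest peaks lay at different TSSs, one at chr16:58368932-58369641 with control shRNA (3.46) and one at chr16:58392387-58393090 with shE2F1 (4.57). At the former site the shE2F1 fold was 3.68, and by its canonical TSS alone GINS3 was a gain. Because these folds are means over peaks of unequal width, from 263 to 710 bp in control shRNA and from 472 to 1323 bp in shE2F1, they are given as values only. H3K27me3 peaks at members were narrow, with a median width of 461 bp in shE2F1 against 670 bp over all genes with one, and their median −log10 q was 3.95 against 2.16.

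**Figure D5:**
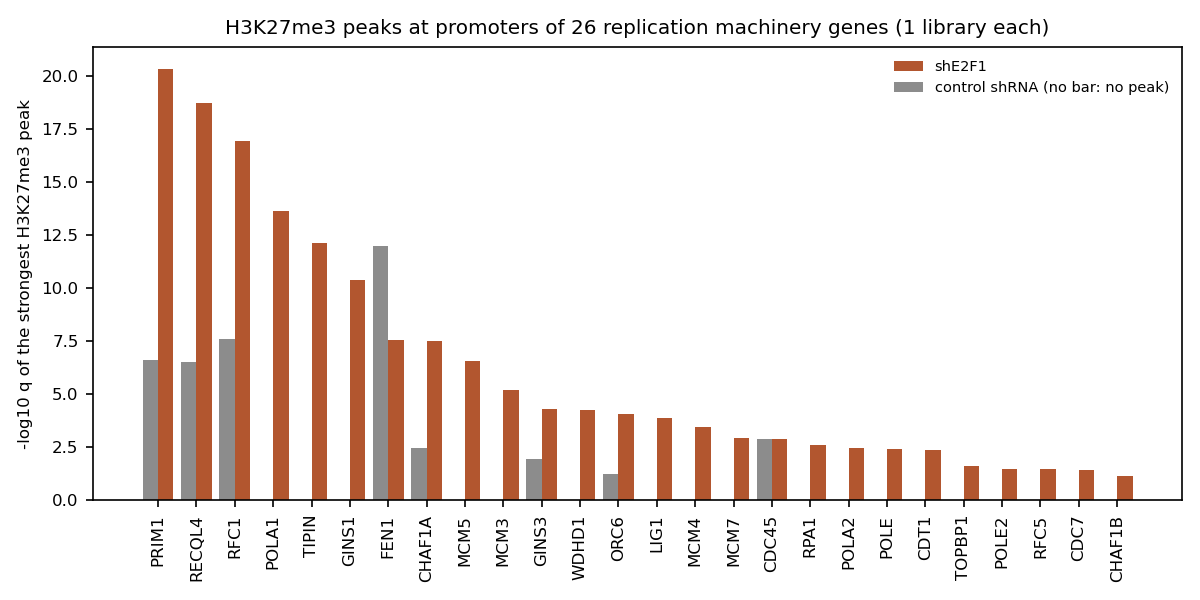
−log10 q of the strongest H3K27me3 promoter peak (vertical axis) with control shRNA (grey) and shE2F1 (brown) at the 26 members with a peak in either list, 1 library each. Members without a grey bar had no control shRNA peak. FEN1 is the member whose grey bar is clearly the taller (12.0 against 7.55), and PRIM1, RECQL4 and RFC1 have the tallest brown bars.

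Some members share their promoter with a gene on the other strand. At 16 of 51 members an opposite-strand TSS of another protein-coding gene lay within 1 kb of the GSK126 summit, against 24.0% of all genes with a peak. Such pairs were MCM4 with PRKDC, MCM7 with AP4M1, RPA3 with UMAD1 and WDHD1 with SOCS4. They made up 5 of the 8 members with H3K27me3 in both lists (ORC6, CDC45, RECQL4, PRIM1 and FEN1), 6 of the 18 gained and 5 of the 26 with neither. No interval was computed for the 16 of 51, and no share over all genes for these splits. Neither is therefore read as a trait of the members. A peak at a shared promoter cannot be assigned to either gene.

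A list of 30 further replication genes, among them MCM8, ATAD5, TOP2A and UHRF1, was scored in the same way. An E2F1 peak was present at 11 of 30 in untreated cells, 26 of 30 in DMSO and 28 of 30 in GSK126. The shares over all genes were 5.85%, 33.5% and 51.5%. The median DMSO fold was 9.69 (26 genes), below the 19.4 of the machinery genes, and 9 of 26 stood in the top 10% of genes by fold. The E2F motif was near the DMSO summit at 13 of 26 (50.0%, 29.9% to 70.1%), against 37.4% of all genes with a peak. ATAD5, which unloads the clamp, and DNA2, a nuclease of Okazaki fragments, had DMSO folds of 23.2 and 30.9, whereas TOP1, a topoisomerase, had 3.13. H3K27me3 was gained at 13 of 30 (43.3%, 25.5% to 62.6%), against 26% of all genes, and lost at 0, against 1.94%. Among those with a DMSO E2F1 peak 13 of 26 gained it (50.0%, 29.9% to 70.1%), against 43.1%. The fold was at least 1.5 times higher in GSK126 at 20 of 26 (76.9%, 56.4% to 91.0%), against 67.7%. Each interval printed for these further genes includes the share beside it.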

How the data were processed

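Peak lists of 5 ChIP-seq libraries were analysed, 3 for E2F1 and 2 for H3K27me3. Per the study's methods the authors trimmed reads with cutadapt 4.5, aligned them to GRCh38 with Bowtie2 2.5.2 and called peaks per library with MACS2 2.2.9.1 at a q of 0.01, with a broad cutoff of 0.1 for H3K27me3. Chromatin was sonicated for E2F1 and, per those methods, cut with micrococcal nuclease for histone marks, although the labels name sonication for every sample. The deposited lists give the fold, a ratio to background, the −log10 p and −log10 q, a score that was not used and the summit offset of narrow peaks. TSSs came from GENCODE release 44 (hg38). Fragments and background at each E2F1 summit were solved from the fold (pseudocount 1) and the Poisson −log10 p the authors deposited, and gave whole numbers within a relative error of 2e-05 for every peak. PCR duplicates that escaped removal would make the intervals too narrow.

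The groups follow the sample labels. The 52 genes, the 30 further genes, the motifs and the alternatives were chosen with earlier results of these data known. Named genes were the 10 with the highest untreated fold, members without a peak (where over 10, those with the most and fewest TSSs), the 5 highest and 5 lowest GSK126 to DMSO ratios, and the members with H3K27me3 in control shRNA or the 10 clearest gains. All other members are given by role. Shares carry exact Clopper-Pearson intervals. Ratios of fragments carry intervals from the exact binomial share. No test between conditions was made, as each has 1 library. Scripts were checked on simulated peaks and ran in Python 3.11.15 with scipy 1.17.1.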

Additional observations from a re-analysis of the deposited data

How the results depend on the processing

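Of 69 alternative settings, 63 left the value within 1.5 times of the reported count, or within the interval of the median ratio. A change of direction could arise only for the median ratio, which kept its sign. Alternatives were windows of 500 and 2000 bp, 1 canonical TSS per gene, overlap or midpoint in place of the other, stricter q values, the 1000 strongest peaks of each list, and other motif windows. No paired analysis was possible because each condition has 1 library. At a −log10 q of at least 5, H3K27me3 peaks were left at 4 members with control shRNA and 10 with shE2F1 (2.60% and 9.19% of all genes). The same threshold left 6 gained members, all 6 with a DMSO E2F1 peak, against 6.64% of all genes and 12.2% of those with such a peak. With the 8-base motif, a T added before the 7 letters, 25 members held it in DMSO and 25 in GSK126, against 11.4% and 9.05% of all genes with a peak. Among the 1000 strongest peaks of each list, 29, 44 and 44 members had an E2F1 peak, against 5.57%, 5.68% and 5.68% of all genes. Alternatives restricted to members with an untreated peak, or with a DMSO fold of at least 10, were added after the data were seen. The depth of the H3K27me3 libraries was not recovered, so depth and knockdown cannot be told apart there.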

Other observations

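Inside the bodies of the 52 genes, away from their TSSs, 1 E2F1 peak was found, at POLA1 in GSK126, with a fold of 3.70 and 2356 bp from the nearest TSS. Genes that share a promoter with a member were scored over windows that overlap the member's own. Of the opposite-strand neighbours, PRKDC, AP4M1, PXMP2, SMYD4, ZSWIM9 and SOCS4 had H3K27me3 in shE2F1 and not in control shRNA, as their partners MCM4, MCM7, POLE, RPA1, LIG1 and WDHD1 did. TPRA1 had it too, but its partner MCM2 did not. GINS1 had a second E2F1 peak at another of its TSSs, with folds of 10.8 in DMSO and 12.4 in GSK126, and a separate H3K27me3 peak there in shE2F1 with a −log10 q of 2.84.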
